A study of Homo sapiens with 15 samples.

Results

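The comparison described here sets the 3 arrays of H1975 cells taken 48 h after epidermal growth factor (EGF) against the 3 arrays taken 24 h after it, 6 of the 15 arrays of a time course. The arrays were chosen by the hour in their titles and by nothing measured. H1975 is an established human line of non-small cell lung cancer, of the adenocarcinoma type. All cells of both groups had been held overnight without serum and then received EGF at 50 ng/ml in serum-free medium, with no other agent, so that the time after EGF and the time without serum ran together and cannot be told apart. Cells without EGF were not analysed here. Nothing in the labels says that arrays of the same hour came from separate cultures, so p-values measure the spread between these arrays, which may be technical.

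EGF binds its receptor EGFR, a tyrosine kinase, and switches on the RAS and ERK cascade within minutes. Immediate-early genes such as EGR1 and FOS follow, then feedback regulators (Sprouty proteins, dual-specificity phosphatases) that damp the cascade, and later the genes that carry a cell through DNA replication and mitosis. Lung adenocarcinomas often keep features of the alveolar type II cell, which makes surfactant and the lysosomal protease napsin A, or of the secretory cells of the airway.

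The values are SCAN scores, which are on a log scale and standardised within each array. Differences are 48 h minus 24 h in SCAN units, with the standard error (SE) of limma, and no fold change is given because 1 SCAN unit is not known to be a fixed fold. A score therefore ranks a probe set within its own array and is no absolute amount of RNA. Of the 14675 genes with a name, 1889 (12.9%) passed limma at an adjusted p under 0.05 and are called changed below, 909 (6.19%) of them higher and 980 (6.68%) lower at 48 h. An unadjusted limma p under 0.05 was reached by 3505 of the 14675 genes. The median difference over all genes was -0.00058, and the median size of the called differences was 0.13. Large changes lay on the lower side. A size above 0.5 was reached by 55 called genes that were lower at 48 h and by 1 that was higher, NAPSA. The arrays of an hour resembled each other (r from 0.9971 to 0.9972 among the 48 h arrays, 0.9968 to 0.9973 among the 24 h arrays, across the 14675 genes) more than arrays of different hours did (0.9918 to 0.9921). Calls were more frequent in bright genes, with 25.6% called among the 2935 brightest and 0.716% among the 2935 dimmest genes. All 3 arrays of 48 h lay on one side of all 3 of 24 h in 4111 genes (28%), and 839 (5.72%) differed by more than 2 times a noise threshold set from the replicate spread.

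**Figure D1:**
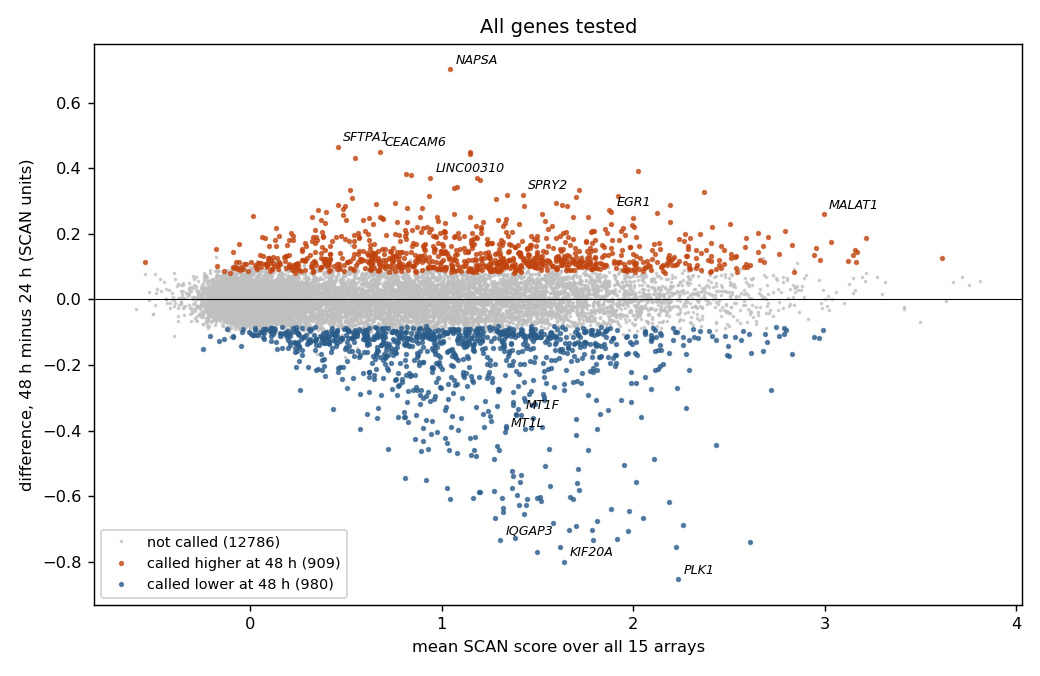
Difference between 48 h and 24 h (SCAN units) against the mean SCAN score over all 15 arrays, with each point a gene and the 909 genes called higher and 980 called lower in colour. The lower side reaches farther from 0, down to PLK1, than the higher side, where NAPSA stands alone above 0.5.

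The labelled cell type was checked against its markers. The 8 measured epithelial and lung adenocarcinoma markers (of 9 listed) had mean scores of 0.79 to 2.90 at 48 h and 0.87 to 2.89 at 24 h. The measured defining markers of blood cells, fibroblasts and endothelial cells, 2 of each, lay between -0.11 and 0.029 at 48 h and between -0.095 and 0.052 at 24 h. EPCAM, an epithelial adhesion molecule, had 2.23, 2.22 and 2.20 at 48 h, against 2.23, 2.22 and 2.22 at 24 h (-0.0077 ± 0.026, adjusted p = 0.908), and KRT18, a simple-epithelium keratin, 2.94, 2.91 and 2.86 at 48 h, against 2.89, 2.91 and 2.89 at 24 h (0.0064 ± 0.028, adjusted p = 0.932). EGFR itself, the receptor of the added ligand, had 2.60, 2.59 and 2.60 at 48 h, against 2.52, 2.51 and 2.53 at 24 h, and its difference of 0.074 ± 0.026, adjusted p = 0.0746 did not pass.

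The largest changes were falls in genes of cell division. All 37 measured members of the G2 and M phase list were lower at 48 h, with a median difference of -0.61, and 26 of 30 S phase genes, with a median of -0.27. PLK1, the kinase that drives entry into and exit from mitosis, had 1.48, 1.57 and 1.47 at 48 h, against 2.31, 2.38 and 2.39 at 24 h (difference -0.85 ± 0.031, adjusted p = 3.74e-12). KIF20A, a kinesin of the spindle midzone and cytokinesis, had 0.94, 0.97 and 0.97 at 48 h, against 1.74, 1.78 and 1.77 at 24 h (difference -0.80 ± 0.029, adjusted p = 3.47e-12). Each 48 h array lay far below each 24 h array, and for both genes the scores between 0.5 h and 12 h were close to or above those of 24 h. GINS2, a subunit of the replicative helicase, had 1.33, 1.30 and 1.32 at 48 h, against 1.87, 1.88 and 1.87 at 24 h (difference -0.56 ± 0.026, adjusted p = 3.53e-11). TYMS, which makes thymidylate for DNA, had 0.95, 0.94 and 0.91 at 48 h, against 1.45, 1.45 and 1.42 at 24 h (difference -0.51 ± 0.027, adjusted p = 1.86e-10).

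Outside the lists of S phase, G2 and M phase, cholesterol and interferon genes, the 12 protein-coding genes with the lowest differences were still mostly genes of mitosis and cytokinesis. IQGAP3, a scaffold protein linked to proliferation, had 0.70, 0.70 and 0.69 at 48 h, against 1.43, 1.47 and 1.40 at 24 h (difference -0.73 ± 0.028, adjusted p = 3.74e-12). CKAP2L, a spindle protein, fell by 0.70, SPAG5, which keeps spindle poles together, by 0.69, and KNL1, the kinetochore scaffold of the spindle checkpoint, by 0.68. MYBL2 encodes the B-MYB transcription factor, which acts on G2 and M phase promoters, and had 1.33, 1.42 and 1.33 at 48 h, against 1.98, 2.07 and 2.03 at 24 h (difference -0.67 ± 0.032, adjusted p = 3.33e-11). The rest were SHCBP1, PBK, SKA3, CEP55, PRR11, ESPL1 and DEPDC1, with differences from -0.65 to -0.61 and no overlap of the groups. ESPL1 encodes separase, which cuts cohesin at anaphase, and CEP55 acts in abscission. A dimmer second probe set of DEPDC1 fell by 0.27. Symbol families also hold members of the lists, such as KIF20A, so that their counts are not separate evidence. Of 39 KIF genes, 14 were lower and none higher by limma. Of 35 CEP genes of the centrosome, 14 were lower and none higher. Their unadjusted p was under 0.05 for 23 and 20 genes, beside 3505 of all 14675 genes.

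**Figure D2:**
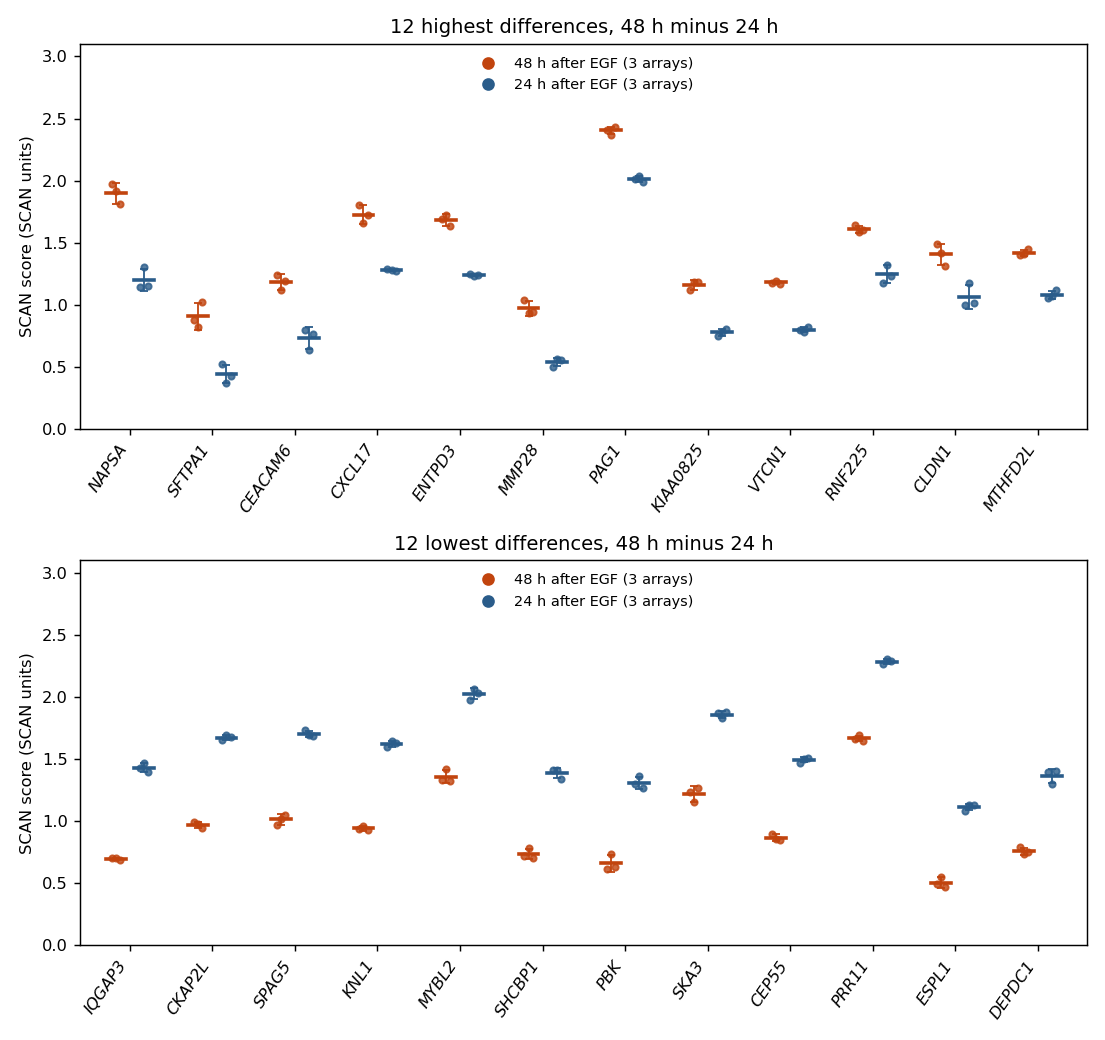
SCAN scores of the 12 genes with the highest and the 12 with the lowest called differences outside the S phase, G2 and M phase, cholesterol and interferon lists, with 48 h to the left and 24 h to the right of each gene. Points are arrays, bars are means and whiskers are SD (n = 3 each), and the 2 groups of points do not overlap in any of these genes.

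Genes that build or package the dividing nucleus were lower as well. In the lamina and nuclear pore list 15 of 23 members were lower and none higher (median -0.10), with 11 of 18 DNA methylation and histone modifiers (-0.099), 9 of 17 condensin, cohesin and chromatin-binding genes (-0.12) and 12 of 15 DNA repair genes (-0.25). With each array divided by its median absolute deviation, the lamina and pore count was 8. LMNB1, the B-type lamin, had 0.67, 0.67 and 0.65 at 48 h, against 1.10, 1.17 and 1.15 at 24 h (difference -0.48 ± 0.027, adjusted p = 4.71e-10). LMNB2 fell by 0.35 and TMPO, a lamin-binding protein of the inner nuclear membrane, by 0.32. SMC2, the core of condensin, had 1.23, 1.23 and 1.32 at 48 h, against 1.68, 1.77 and 1.71 at 24 h (difference -0.46 ± 0.031, adjusted p = 5.71e-09). ESCO2, which acetylates cohesin in S phase, fell by 0.40, and HMGB2, a DNA-bending protein, by 0.33. ASF1B, a histone chaperone, had 0.78, 0.83 and 0.83 at 48 h, against 1.25, 1.26 and 1.26 at 24 h (difference -0.45 ± 0.027, adjusted p = 1.15e-09). EZH2, the H3K27 methyltransferase, fell by 0.34. SUV39H1, an H3K9 methyltransferase, fell by 0.24, although its dimmer probe set differed by only -0.080. NEIL3, a DNA glycosylase, had 0.86, 0.87 and 0.85 at 48 h, against 1.29, 1.32 and 1.34 at 24 h (difference -0.46 ± 0.028, adjusted p = 1.15e-09), and MND1 and RAD51AP1, which act with the recombinases, fell by 0.37 and 0.32.

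In a list of CDK inhibitors, cyclin D genes and pocket proteins, which also holds the kinase CDK6, 3 of 9 measured genes were lower and none higher. With each array divided by its median absolute deviation 2 were lower and 1 higher. The list had a median of -0.032. RBL1, the pocket protein p107, had 0.87, 0.91 and 0.90 at 48 h, against 1.12, 1.14 and 1.17 at 24 h (difference -0.25 ± 0.028, adjusted p = 3.51e-06). RB1, the retinoblastoma protein, fell by 0.20. CDK6 fell by 0.090, with an adjusted p of 0.0454 that was as high as 0.197 without 24 h array 1 or 3 or without 48 h array 1 or 3. It also did not pass with the 6 arrays alone, with all probe sets tested or with the replicate number as a block. Nor did it pass after quantile normalisation or scaling by the median absolute deviation.

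Promoters of genes that fall together were searched for the cell cycle homology region (CHR, TTTGAA) and the CCAAT box, both strands, from 250 bases before to 50 bases after the first listed RefSeq start of each gene (GRCh38.p14, 10707 of the 14675 genes matched). TTTGAA was found in 24 of 34 G2 and M phase promoters (70.6%), in 1 of 25 S phase promoters (4.0%) and in 11.8% of all 10707. CCAAT was found in 29 of 34 (85.3%) and 16 of 25 (64.0%) of them, and in 36.0% of all. Among all genes called lower 20.2% held TTTGAA, among genes called higher 10.4% and among genes not called 11.1%. A match is a run of letters, not a shown binding site. Parts of 3 promoters are shown as examples from genes that fell by 0.70 or more, with TTTGAA and CCAAT (or their reverse complements) in capitals. KIF20A holds 2 CCAAT boxes on the opposite strand and no TTTGAA.
PLK1 (chr16:23678809-23678878, plus strand): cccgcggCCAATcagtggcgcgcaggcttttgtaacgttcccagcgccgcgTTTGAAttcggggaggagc
KIF20A (chr5:138179012-138179081, plus strand): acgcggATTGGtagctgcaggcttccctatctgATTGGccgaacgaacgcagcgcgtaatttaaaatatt
CKAP2L (chr2:112764615-112764684, minus strand): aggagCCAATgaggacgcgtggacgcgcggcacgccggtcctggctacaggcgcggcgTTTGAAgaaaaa

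On the higher side, the lung lineage genes NAPSA and SFTPA1 headed the 12 genes ranked outside the cell cycle, cholesterol and interferon lists. As a list, the lung lineage genes did not lead. A larger share was higher among interferon-induced genes (18 of 24, median 0.15) and feedback regulators of ERK and EGFR (8 of 16, median 0.079). In the lung lineage and surfactant list 8 of 21 measured genes were higher and 2 lower (median 0.040), and the count of higher genes was 5 without 48 h array 2, without 24 h array 2 or without 24 h array 3. NAPSA, napsin A, which processes surfactant protein B, had the highest difference of all genes, with 1.97, 1.91 and 1.81 at 48 h, against 1.14, 1.30 and 1.15 at 24 h (difference 0.70 ± 0.046, adjusted p = 3.93e-09). Its mean was 0.66 at 0.5 h and 0.91 at 12 h. SFTPA1, surfactant protein A, had 0.88, 0.82 and 1.03 at 48 h, against 0.52, 0.37 and 0.43 at 24 h (difference 0.47 ± 0.045, adjusted p = 7.13e-07). A near-identical copy, SFTPA2, differed by 0.10, and probes may read both. HOPX, a homeodomain protein of alveolar cells, had 0.71, 0.73 and 0.74 at 48 h, against 0.46, 0.39 and 0.53 at 24 h (difference 0.27 ± 0.033, adjusted p = 1.53e-05). NKX2-1, the master regulator of lung identity, AQP3, CTSH and SFTPB were also among the members that were higher, and of these only AQP3 kept its call without any single array. FOXA2 of the same list was lower and kept its call without any single array, and 11 of the 21 members were not called. ETV5, an ETS factor of alveolar type II cells, was lower, with 0.99, 0.90 and 0.93 at 48 h, against 1.13, 1.12 and 1.08 at 24 h (difference -0.17 ± 0.032, adjusted p = 0.00126).

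Several others of the 12 highest genes encode secreted or surface proteins. A mucosal theme did not hold for the list of mucins and mucosal secreted proteins, which includes CXCL17. In it 3 of 18 genes were higher and 1 lower, with a median of 0.0076. CXCL17, a chemokine of mucosal surfaces, had 1.80, 1.66 and 1.72 at 48 h, against 1.28, 1.28 and 1.27 at 24 h (difference 0.45 ± 0.033, adjusted p = 1.52e-08). CEACAM6, a carcinoembryonic antigen family adhesion protein, had 1.24, 1.12 and 1.19 at 48 h, against 0.80, 0.63 and 0.77 at 24 h (difference 0.45 ± 0.048, adjusted p = 2.60e-06). MMP28, the matrix metalloproteinase epilysin, had 1.04, 0.93 and 0.95 at 48 h, against 0.50, 0.57 and 0.55 at 24 h (difference 0.43 ± 0.033, adjusted p = 3.54e-08). ENTPD3 encodes an ectonucleotidase that hydrolyses extracellular ATP, and had 1.69, 1.73 and 1.63 at 48 h, against 1.25, 1.23 and 1.24 at 24 h (difference 0.44 ± 0.029, adjusted p = 3.10e-09). VTCN1, the immune checkpoint ligand B7-H4, had 1.17, 1.20 and 1.17 at 48 h, against 0.80, 0.78 and 0.82 at 24 h (difference 0.38 ± 0.026, adjusted p = 7.16e-09). PAG1, a raft adaptor that recruits the Src-inhibiting kinase CSK, had 2.41, 2.37 and 2.43 at 48 h, against 2.01, 2.04 and 1.99 at 24 h (difference 0.39 ± 0.030, adjusted p = 2.93e-08). CLDN1, a tight junction claudin, had 1.49, 1.42 and 1.31 at 48 h, against 1.00, 1.17 and 1.01 at 24 h (difference 0.34 ± 0.045, adjusted p = 2.91e-05). KIAA0825, RNF225 and MTHFD2L, a mitochondrial one-carbon enzyme, were higher by 0.38, 0.36 and 0.34. All 12 kept their call without any single array.

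Cell surface and junction genes were higher in part. Of 22 tight and adherens junction genes 7 were higher and none lower (median 0.039), but 4 without 48 h array 1. Of 25 CEACAM and surface adhesion genes 6 were higher and none lower. CEACAM5, the antigen CEA, had 0.64, 0.67 and 0.63 at 48 h, against 0.50, 0.39 and 0.42 at 24 h (difference 0.21 ± 0.031, adjusted p = 8.84e-05), and CD24, a small mucin-like surface protein, 2.47, 2.48 and 2.52 at 48 h, against 2.33, 2.36 and 2.32 at 24 h (difference 0.15 ± 0.027, adjusted p = 0.000655). PARD6B, a polarity protein, was higher by 0.18. CLDN3 was higher by 0.12, and its adjusted p of 0.0111 was up to 0.0733 without 24 h array 1 or 48 h array 1. Of 25 keratin and desmosome genes 5 were higher and 2 lower, with none lower without 48 h array 2 and 1 lower without 48 h array 1 or 3 or 24 h array 2 or 3. The higher ones were desmosomal or cornified proteins: DSC2, a desmocollin, had 2.43, 2.45 and 2.42 at 48 h, against 2.15, 2.17 and 2.12 at 24 h (difference 0.29 ± 0.031, adjusted p = 3.01e-06), DSG2, a desmoglein, was higher by 0.21, and DSP, desmoplakin, by 0.20. KRT15, a basal keratin, fell by 0.11, but did not pass without 48 h array 2 (adjusted p = 0.0503). Of 18 genes of the epithelial to mesenchymal transition, 2 were higher and none lower. GRHL3, an epithelial transcription factor, had 0.47, 0.40 and 0.43 at 48 h, against 0.17, 0.25 and 0.33 at 24 h (difference 0.18 ± 0.036, adjusted p = 0.00202). OVOL1, a repressor of mesenchymal genes, was higher by 0.14, while its second probe set differed by 0.057.

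Matrix genes were higher in part. Of 15 collagens, laminins and matrix glycoproteins 5 were higher and none lower. AGRN, the heparan sulphate proteoglycan agrin, had 1.43, 1.47 and 1.42 at 48 h, against 1.27, 1.28 and 1.27 at 24 h (difference 0.17 ± 0.030, adjusted p = 0.000635), TNC, tenascin C, was higher by 0.15 and SDC4, syndecan 4, by 0.15. Of 26 proteases and inhibitors 3 were higher and 3 lower, with 1 higher without 24 h array 2 and 1 lower without 48 h array 3. With each array divided by its median absolute deviation 7 were higher and 2 lower. MMP13, a collagenase, had 2.03, 1.98 and 2.09 at 48 h, against 1.72, 1.64 and 1.74 at 24 h (difference 0.33 ± 0.033, adjusted p = 9.19e-07), and KLK6, a kallikrein protease, 0.44, 0.40 and 0.48 at 48 h, against 0.63, 0.65 and 0.68 at 24 h (difference -0.21 ± 0.030, adjusted p = 6.76e-05). TIMP4, a metalloproteinase inhibitor, fell by 0.13, but its adjusted p reached 0.109 without 24 h array 1 or 2 or 48 h array 2 or 3. Of 24 CLDN genes of claudins 4 were higher and 1 lower, and of 19 MMP genes 4 were higher and none lower by limma. An unadjusted p under 0.05 was reached by 7 and 5 of them, shares near that of all genes (3505 of 14675). Both families share called genes with the lists already counted, such as CLDN1 and MMP13. Among 5 epithelial ion channel genes 3 were higher, of which ANO9, a calcium-activated scramblase family member, had 1.11, 1.19 and 1.11 at 48 h, against 0.97, 0.98 and 0.95 at 24 h (difference 0.17 ± 0.035, adjusted p = 0.00254). CLCA2 and PIEZO1 were higher by 0.11 and 0.10, with adjusted p up to 0.105 for CLCA2 without 48 h array 2 or 3 or 24 h array 2 or 3, and up to 0.0809 for PIEZO1 without 48 h array 1 or 2 or 24 h array 1 or 3. With 48 h array 2 or 24 h array 3 left out, 1 of the 5 was higher. GALNT5 and GALNT7, which start mucin-type glycans, were higher by 0.13 and 0.11 of 10 such genes, and neither kept its call without 48 h array 1 or 2 (nor GALNT5 without 24 h array 1 or 3, nor GALNT7 without 24 h array 2, adjusted p up to 0.188 and 0.0658).

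In the ERK response, feedback regulators and most called immediate-early genes were higher at 48 h. Of 16 feedback regulators of ERK and EGFR 8 were higher and none lower (median 0.079), with 5 without 24 h array 1 or 24 h array 2. SPRY2, which restrains receptor tyrosine kinase signalling, had 1.75, 1.75 and 1.72 at 48 h, against 1.35, 1.46 and 1.45 at 24 h (difference 0.32 ± 0.032, adjusted p = 1.15e-06). DUSP6, the ERK-specific phosphatase, had 1.40, 1.42 and 1.41 at 48 h, against 1.16, 1.22 and 1.20 at 24 h (difference 0.22 ± 0.027, adjusted p = 1.47e-05). DUSP1, a phosphatase of MAP kinases, had 1.07, 1.03 and 1.02 at 48 h, against 0.84, 0.93 and 0.87 at 24 h (difference 0.16 ± 0.031, adjusted p = 0.00126), against a mean of 1.66 at 0.5 h. Of 22 immediate-early transcription factors 8 were higher and 1 lower (median 0.049), with 5 higher without 48 h array 2 or 24 h array 3. EGR1 had 1.98, 2.06 and 2.05 at 48 h, against 1.75, 1.79 and 1.74 at 24 h (difference 0.27 ± 0.029, adjusted p = 3.21e-06), with 2.63 at 0.5 h and 1.36 at 12 h, so that its level at 48 h lay between the levels of those hours. JUNB, an AP-1 subunit, had 1.98, 2.06 and 2.01 at 48 h, against 1.76, 1.85 and 1.80 at 24 h (difference 0.22 ± 0.032, adjusted p = 0.000117). FOS, JUN, JUND, KLF10, CSRNP1 and IER5 were the other members that were higher, and of these FOS and JUN kept their calls without any single array. FOSL1, the AP-1 subunit FRA1, was the exception and fell, with 1.35, 1.36 and 1.41 at 48 h, against 1.64, 1.62 and 1.64 at 24 h (difference -0.26 ± 0.027, adjusted p = 2.17e-06). Of 24 DUSP genes 6 were higher and 2 lower, and of 17 KLF genes 5 were higher and none lower by limma. An unadjusted p under 0.05 was reached by 11 and 6 of them, beside 3505 of all 14675 genes. These families share called genes with the lists above, such as DUSP6 and KLF10.

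The EGR1 promoter is shown because of its known serum response elements. The CArG box, searched by name over both strands, was found in 2 of 17 promoters of the immediate-early list (11.8%) and in 1.22% of all, and both of those 2 promoters held at least 2 boxes. Among genes called higher 9 of 681 promoters held it (1.32%), and among the feedback regulators of ERK and EGFR 0 of 13. Other motifs were searched too and are not reported. Capitals mark the CArG boxes.
EGR1 (chr5:138465369-138465413, plus strand): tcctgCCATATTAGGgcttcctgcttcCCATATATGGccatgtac

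Of the EGF family ligands 2 of 9 were higher and 1 lower. HBEGF, the heparin-binding ligand of EGFR, had 0.95, 0.88 and 0.90 at 48 h, against 0.63, 0.70 and 0.69 at 24 h (difference 0.24 ± 0.031, adjusted p = 3.15e-05). EPGN, epigen, and NRG4, a ligand of ERBB4, are dim here. EPGN was higher by 0.11 and NRG4 lower by 0.10, and their adjusted p reached 0.0818 and 0.11 without single arrays (48 h array 1 or 3 and 24 h array 2 or 3 for EPGN, any array but 24 h array 3 for NRG4). Of 29 receptor tyrosine kinases 6 were higher and 1 lower, with 2 lower without 24 h array 3. KDR, the VEGF receptor of endothelium, had 1.08, 1.07 and 1.03 at 48 h, against 0.81, 0.85 and 0.79 at 24 h (difference 0.25 ± 0.029, adjusted p = 9.71e-06), and its mean was 0.43 at 0.5 h. The defining endothelial markers VWF and CLDN5 lay between -0.028 and 0.012 at 48 h and between -0.026 and 0.020 at 24 h. ERBB3, the kinase-impaired partner of EGFR and a FOXO target, had 1.76, 1.75 and 1.74 at 48 h, against 1.60, 1.63 and 1.59 at 24 h (difference 0.15 ± 0.026, adjusted p = 0.000755). EPHA4, an ephrin receptor, was higher by 0.21. MET, the receptor for hepatocyte growth factor, fell, with 2.34, 2.30 and 2.29 at 48 h, against 2.50, 2.50 and 2.45 at 24 h (difference -0.17 ± 0.027, adjusted p = 0.000224). THBS1, thrombospondin 1, was the member of 12 YAP and serum response factor targets that passed (2 passed with each array divided by its median absolute deviation), with 2.05, 2.09 and 2.12 at 48 h, against 1.95, 1.83 and 1.90 at 24 h (difference 0.19 ± 0.032, adjusted p = 0.000425).

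**Figure D3:**
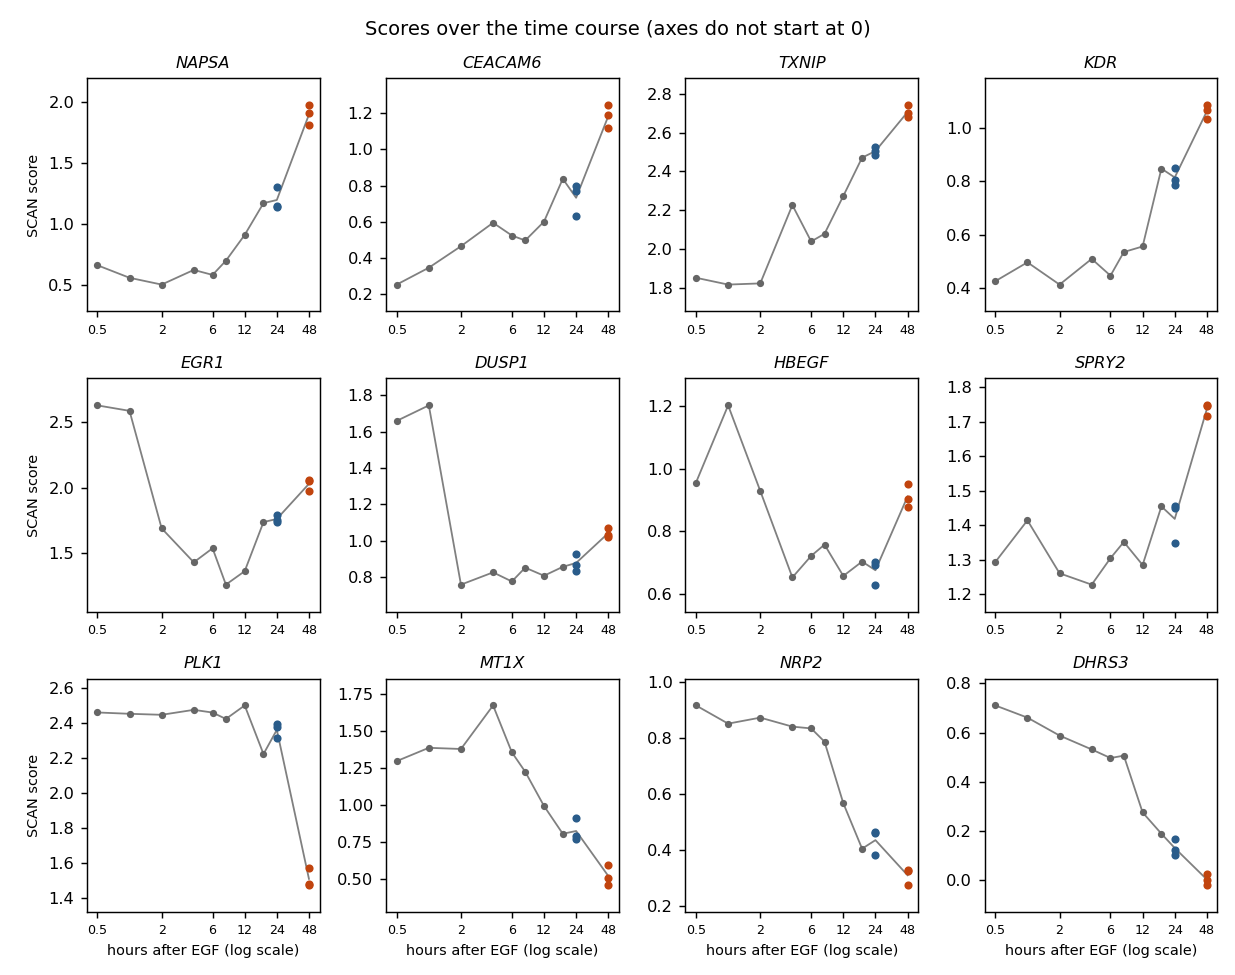
Mean SCAN scores from 0.5 h to 48 h after EGF (hours on a log scale) for 12 genes, with the 3 arrays of 24 h in blue and the 3 of 48 h in orange. NAPSA, CEACAM6, TXNIP and KDR were highest at 48 h, EGR1, DUSP1 and HBEGF were above 24 h but below their highest early values, and PLK1, MT1X, NRP2 and DHRS3 were lowest at 48 h.

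FOXO targets are genes switched on when growth signalling falls. In a joint list of FOXO targets and quiescence genes, 8 of 25 members were higher and none lower (median 0.061). The higher count was 5 without 48 h array 1 and 4 without 24 h array 1. TXNIP, an inhibitor of thioredoxin and of glucose uptake, had 2.74, 2.68 and 2.70 at 48 h, against 2.50, 2.49 and 2.52 at 24 h (difference 0.20 ± 0.027, adjusted p = 4.69e-05), against a mean of 1.85 at 0.5 h. ARRDC4, its arrestin relative, had 1.13, 1.14 and 1.15 at 48 h, against 0.95, 0.91 and 0.96 at 24 h (difference 0.20 ± 0.026, adjusted p = 2.52e-05). BCL6, PDCD4, PIK3IP1, YPEL2 and YPEL3 were other members that were higher, and of these BCL6 kept its call without any single array. Among 24 interferon-induced genes 18 were higher and none lower (median 0.15), where SAMD9L had 1.55, 1.60 and 1.57 at 48 h, against 1.18, 1.27 and 1.16 at 24 h (difference 0.37 ± 0.032, adjusted p = 1.35e-07) and IFI44L 2.26, 2.35 and 2.29 at 48 h, against 2.02, 2.03 and 1.92 at 24 h (difference 0.31 ± 0.033, adjusted p = 2.04e-06). In the NOTCH list 6 of 21 genes were higher and 1 lower, with 3 higher without 24 h array 3. NOTCH3 had 1.35, 1.34 and 1.33 at 48 h, against 1.13, 1.18 and 1.12 at 24 h (difference 0.19 ± 0.029, adjusted p = 0.000116). MAML2, a coactivator of NOTCH, was higher by 0.19 at its brighter probe set, and 0.037 at the other. NOTCH2 was higher by 0.10 (adjusted p = 0.0509 without 24 h array 2). HEYL, a NOTCH target near the detection floor, fell by 0.093, with an adjusted p up to 0.0904 without 24 h array 1 or 3 or 48 h array 1 or 3. In the list of 23 WNT genes 4 were higher and 2 lower. Without 48 h array 1, 24 h array 1 or 24 h array 2 the higher count was 2, and without any single array at most 1 was lower, with 0 lower when each array was divided by its median absolute deviation. LGR4, a receptor for R-spondins, had 1.75, 1.77 and 1.72 at 48 h, against 1.62, 1.59 and 1.62 at 24 h (difference 0.13 ± 0.027, adjusted p = 0.00231), and LRP6, the WNT co-receptor, was higher by 0.13. Of 18 ephrin, semaphorin and netrin genes 6 were higher and 1 lower. PLXNA2 and PLXNB2, plexin receptors of semaphorins, were higher by 0.21 and 0.18, and NTN4, a netrin, by 0.14. NRP2, the semaphorin co-receptor, fell, with 0.32, 0.28 and 0.33 at 48 h, against 0.46, 0.38 and 0.46 at 24 h (difference -0.13 ± 0.029, adjusted p = 0.0073). The clock genes BMAL2 and CRY1 were the 2 of 13 that passed, falling by 0.17 and 0.12.

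Metabolic genes moved by pathway only in part, and some lists went both ways. Of 17 cholesterol synthesis and uptake genes 13 were lower and none higher (median -0.15), among them ACAT2 with 1.19, 1.06 and 1.07 at 48 h, against 1.50, 1.50 and 1.50 at 24 h (difference -0.39 ± 0.032, adjusted p = 7.94e-08) and INSIG1, a regulator of SREBP, with 2.49, 2.50 and 2.49 at 48 h, against 2.77, 2.79 and 2.75 at 24 h (difference -0.28 ± 0.026, adjusted p = 4.26e-07). In the list of 19 fatty acid synthesis genes 6 were lower and 3 higher. With 24 h array 2 left out 2 were lower, and with each array divided by its median absolute deviation 1. ACLY, which makes cytosolic acetyl-CoA from citrate, had 2.63, 2.64 and 2.64 at 48 h, against 2.76, 2.78 and 2.76 at 24 h (difference -0.13 ± 0.025, adjusted p = 0.00172), and ACSS2, which makes it from acetate, fell by 0.14. FADS3, a desaturase family member, was higher, with 0.74, 0.76 and 0.73 at 48 h, against 0.41, 0.53 and 0.43 at 24 h (difference 0.29 ± 0.032, adjusted p = 4.19e-06). Genes of fatty acid oxidation and lipid storage were higher in 4 of 16 cases and lower in 1. ANGPTL4, an inhibitor of lipoprotein lipase, had 1.71, 1.64 and 1.63 at 48 h, against 1.40, 1.54 and 1.45 at 24 h (difference 0.19 ± 0.037, adjusted p = 0.00146), DGAT1, which makes triglyceride, was higher by 0.15 and PPARG, the nuclear receptor of lipid storage, by 0.14. LPIN1 fell by 0.11, which did not pass without 48 h array 3 (adjusted p = 0.065) or with each array divided by its median absolute deviation.

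Serine synthesis genes were lower together. Of 16 ATF4 and amino acid response genes 5 were lower and 2 higher, with 3 lower when each array was divided by its median absolute deviation. PSPH, PHGDH and PSAT1 are the enzymes of the pathway from 3-phosphoglycerate to serine, and PSPH had 1.65, 1.58 and 1.68 at 48 h, against 1.88, 1.83 and 1.86 at 24 h (difference -0.22 ± 0.030, adjusted p = 4.21e-05). PHGDH fell by 0.16 and PSAT1 by 0.15. DDIT3, the stress factor CHOP, was higher, with 1.41, 1.36 and 1.36 at 48 h, against 1.26, 1.22 and 1.23 at 24 h (difference 0.14 ± 0.027, adjusted p = 0.00137). Of 19 nucleotide and one-carbon genes 7 were lower and none higher. PRPS1, which makes phosphoribosyl pyrophosphate, had 1.62, 1.59 and 1.62 at 48 h, against 1.82, 1.77 and 1.85 at 24 h (difference -0.20 ± 0.028, adjusted p = 5.75e-05), and SHMT1, a serine hydroxymethyltransferase, 1.25, 1.16 and 1.16 at 48 h, against 1.38, 1.41 and 1.38 at 24 h (difference -0.20 ± 0.032, adjusted p = 0.000273). In polyamine metabolism ODC1, the rate-limiting enzyme of synthesis, had 1.82, 1.89 and 1.88 at 48 h, against 2.02, 2.06 and 2.01 at 24 h (difference -0.17 ± 0.029, adjusted p = 0.000498), while SAT1, which opens the way to breakdown and export, had 2.84, 2.79 and 2.82 at 48 h, against 2.68, 2.71 and 2.63 at 24 h (difference 0.15 ± 0.029, adjusted p = 0.00203). CP, the ferroxidase ceruloplasmin, was higher by 0.13. Of 6 xenobiotic and retinoid genes, CRABP2, a retinoic acid carrier, was higher by 0.21 and DHRS3, a retinaldehyde reductase, lower by 0.13. DHRS3 had a mean of 0.71 at 0.5 h and lay near 0 on all 3 arrays of 48 h. SLC60A1, the only measured gene of the sugar, lactate and nucleoside transporter list, had 1.34, 1.29 and 1.27 at 48 h, against 1.07, 1.05 and 1.02 at 24 h (difference 0.25 ± 0.029, adjusted p = 6.34e-06).

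Metallothioneins, small cysteine-rich proteins that bind zinc and copper, were lower in part. Of 9 measured genes of the list, 8 metallothioneins and MTF1, 3 were lower and none higher. MT1F had 1.05, 1.04 and 1.09 at 48 h, against 1.38, 1.37 and 1.49 at 24 h (difference -0.35 ± 0.032, adjusted p = 3.19e-07). MT1X had 0.51, 0.59 and 0.46 at 48 h, against 0.77, 0.91 and 0.79 at 24 h (difference -0.30 ± 0.038, adjusted p = 1.81e-05), after 1.30 at 0.5 h and 0.99 at 12 h. MT2A had 1.17, 1.22 and 1.16 at 48 h, against 1.50, 1.44 and 1.45 at 24 h (difference -0.28 ± 0.029, adjusted p = 1.58e-06). Metallothionein genes are close relatives, so that probes of one may read another, and the pseudogene MT1L, read with the same caution, had 1.06, 1.05 and 0.95 at 48 h, against 1.42, 1.44 and 1.42 at 24 h (difference -0.40 ± 0.030, adjusted p = 2.50e-08). The metal response element core (TGCACNC or TGCGCNC, both strands) was found at least 2 times in all 4 metallothionein promoters that matched, out of 8 metallothionein genes measured, and in 11.4% of all promoters. The promoters of MT2A and MT1X are shown because both genes fell, with the cores in capitals.
MT2A (chr16:56608409-56608458, plus strand): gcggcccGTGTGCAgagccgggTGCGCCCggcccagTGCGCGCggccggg
MT1X (chr16:56682315-56682429, plus strand): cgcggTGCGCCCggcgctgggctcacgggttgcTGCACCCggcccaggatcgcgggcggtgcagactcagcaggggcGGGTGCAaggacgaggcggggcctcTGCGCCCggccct

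Chaperones were divided. Of 11 heat shock and cytosolic chaperone genes 4 were higher and 1 lower. HSPA1A and HSPA1B, inducible HSP70 genes, had 2.94, 2.88 and 2.91 at 48 h, against 2.69, 2.73 and 2.70 at 24 h and 2.71, 2.68 and 2.67 at 48 h, against 2.47, 2.46 and 2.47 at 24 h (differences 0.20 ± 0.027, adjusted p = 3.89e-05 and 0.22 ± 0.026, adjusted p = 1.05e-05). They are near-identical copies, so their probe sets cannot be taken as separate evidence. HSPH1, an HSP110 exchange factor for HSP70, had 2.55, 2.42 and 2.51 at 48 h, against 2.31, 2.34 and 2.27 at 24 h (difference 0.19 ± 0.032, adjusted p = 0.000543), and BAG3 was higher too. HSPA4L, another HSP110 relative, fell, with 1.72, 1.62 and 1.64 at 48 h, against 1.88, 1.76 and 1.87 at 24 h (difference -0.18 ± 0.035, adjusted p = 0.00176). None of 13 unfolded protein response and endoplasmic reticulum chaperone genes was called by limma, and 1 had an unadjusted p under 0.05. There was 1 call without 48 h array 2, and 1 with each array divided by its median absolute deviation. SEL1L, of endoplasmic reticulum degradation, had the largest size, with 2.26, 2.12 and 2.27 at 48 h, against 2.15, 2.11 and 2.18 at 24 h (difference 0.070 ± 0.035, adjusted p = 0.236).

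Few or no genes were called in most lists of protein synthesis and energy, but small differences leaned to the lower side in some. By limma none of 21 cytosolic ribosomal protein genes was called and 0 had an unadjusted p under 0.05 (1 call with each array divided by its median absolute deviation), the largest size being that of RPL22L1 with -0.053 ± 0.028, adjusted p = 0.261. Of 17 ribosome biogenesis genes 1 was called, FBL, the methyltransferase fibrillarin, with 1.65, 1.68 and 1.63 at 48 h, against 1.82, 1.89 and 1.89 at 24 h (difference -0.21 ± 0.029, adjusted p = 4.62e-05). Mitochondrial ribosomal proteins were lower in 5 of 43 cases and higher in 1, with 2 lower without 24 h array 1 and 3 without 24 h array 2, 48 h array 2 or 48 h array 3. Differences were negative in 35 of the 43, called or not. Their median of -0.033 did not keep its sign under every rescaling of the arrays. MRPL15 had 1.54, 1.48 and 1.54 at 48 h, against 1.66, 1.67 and 1.63 at 24 h (difference -0.13 ± 0.027, adjusted p = 0.00292), and MRPS35 fell by 0.13. MRPS7 fell by 0.13, with an adjusted p up to 0.238 without any single array but 48 h array 1. MRPL14 was higher by 0.12, with up to 0.11 without 24 h array 1 or 3 or 48 h array 1 or 2. COX5A, a subunit of cytochrome c oxidase, fell by 0.14 and was the call among 12 respiratory chain genes, with 3 calls without 48 h array 2 and 2 without 24 h array 1 or 2. None of 11 genes of the citric acid cycle and pyruvate entry was called by limma, though 4 had an unadjusted p under 0.05. Differences were negative in 9 of these 11 genes, with a median of -0.055. MPC1, the pyruvate carrier, had -0.082 ± 0.034, adjusted p = 0.14. Of 17 aminoacyl-tRNA synthetases WARS1 was higher by 0.12 and LARS1 and KARS1 fell by 0.11 and 0.11. That is 17.6% called, beside 12.9% of all genes. Differences were negative in 16 of the 17, with a median of -0.044. With each array divided by its median absolute deviation no synthetase and 1 mitochondrial ribosomal gene was lower.

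Lysosomal genes were higher more often than lower, with 7 of 28 higher and 3 lower. CTSC, cathepsin C, had 2.43, 2.39 and 2.42 at 48 h, against 2.19, 2.17 and 2.17 at 24 h (difference 0.24 ± 0.026, adjusted p = 3.52e-06), and CTSO, cathepsin O, was higher by 0.20. CTSS, cathepsin S, fell, with 1.35, 1.25 and 1.26 at 48 h, against 1.46, 1.52 and 1.47 at 24 h (difference -0.20 ± 0.031, adjusted p = 0.000218). None of 28 autophagy genes was called by limma, and 4 had an unadjusted p under 0.05. With each array divided by its median absolute deviation 2 were higher. ATG10, a conjugating enzyme, had the largest size, with a difference of 0.087 ± 0.039, adjusted p = 0.185. Of 34 VPS genes of vesicle sorting 6 were higher and 1 lower.

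Immune genes outside the interferon list moved in both directions. Of 25 cytokines and chemokines 5 were higher and 2 lower. Of 10 complement and coagulation genes 1 was higher (2 without 48 h array 3, and 2 with each array divided by its median absolute deviation) and 2 lower. CFB, complement factor B, had 1.07, 1.09 and 1.08 at 48 h, against 0.87, 0.91 and 0.79 at 24 h (difference 0.22 ± 0.031, adjusted p = 4.96e-05), while CFI, the protease that inactivates C3b, had 0.77, 0.73 and 0.82 at 48 h, against 0.95, 0.95 and 1.00 at 24 h (difference -0.19 ± 0.031, adjusted p = 0.000287) and TFPI2, a protease inhibitor, 0.32, 0.33 and 0.33 at 48 h, against 0.64, 0.57 and 0.51 at 24 h (difference -0.24 ± 0.033, adjusted p = 4.86e-05). CX3CL1, fractalkine, had 2.44, 2.49 and 2.45 at 48 h, against 2.19, 2.22 and 2.18 at 24 h (difference 0.26 ± 0.027, adjusted p = 1.22e-06), and CCL2, CXCL8 and KITLG were other cytokines that were higher, of which CXCL8 did not pass without 48 h array 2 or 3 or 24 h array 1 or 2. GDF15, a stress cytokine, fell, with 1.50, 1.44 and 1.56 at 48 h, against 1.66, 1.75 and 1.64 at 24 h (difference -0.18 ± 0.034, adjusted p = 0.000998), as did IL18. ICAM1, the adhesion molecule of NF-kB signalling, was higher, with 1.75, 1.61 and 1.69 at 48 h, against 1.47, 1.49 and 1.51 at 24 h (difference 0.19 ± 0.034, adjusted p = 0.000669). Of 7 antigen presentation genes 2 were higher and 2 lower. MICB, a stress ligand of NKG2D, fell, with 0.93, 0.94 and 0.89 at 48 h, against 1.10, 1.11 and 1.00 at 24 h (difference -0.15 ± 0.031, adjusted p = 0.00226). B2M, the light chain of class I molecules, was higher by 0.14 and ULBP3, another NKG2D ligand, by 0.10. B2M did not pass without 24 h array 2 or 48 h array 2 or 3 (adjusted p up to 0.127), nor ULBP3 without any array but 24 h array 3 (up to 0.127).

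Stress and survival genes were mixed. Of 16 p53 targets 2 were higher and 2 lower, and 1 was lower without any single array but 48 h array 1. With each array divided by its median absolute deviation 1 was lower too. PLK2, a polo-like kinase, was higher by 0.15 and TP53INP1 by 0.12, and BAX, a pore-forming member of the BCL2 family, fell by 0.11. BOK, its relative, was higher, with 1.40, 1.36 and 1.40 at 48 h, against 1.16, 1.23 and 1.16 at 24 h (difference 0.20 ± 0.029, adjusted p = 7.16e-05). CFLAR, the caspase 8 inhibitor, was higher by 0.13 (adjusted p up to 0.0718 without 24 h array 3 or 48 h array 1 or 2). Of 19 hypoxia and glycolysis genes 4 were higher and 2 lower. EPAS1, HIF2-alpha, was higher by 0.16, while HK2, a hexokinase, fell by 0.16 and CA12, a carbonic anhydrase, by 0.17. Of 25 NRF2 and glutathione genes 4 were higher and 3 lower, with MGST1 and GSTA4, glutathione transferases, higher by 0.15 and 0.15 and GPX3, a glutathione peroxidase, lower by 0.16. Of 33 splicing factors 3 were higher and 2 lower, with 1 higher without 48 h array 3 or 24 h array 3 and 1 lower without 48 h array 1 or 24 h array 2. With each array divided by its median absolute deviation 5 were higher and 1 lower. ESRP2, an epithelial splicing regulator, had 2.03, 2.06 and 2.02 at 48 h, against 1.81, 1.89 and 1.81 at 24 h (difference 0.21 ± 0.029, adjusted p = 6.26e-05), and HNRNPM, which can act against ESRP on shared exons, 1.97, 1.99 and 1.96 at 48 h, against 2.19, 2.24 and 2.12 at 24 h (difference -0.21 ± 0.031, adjusted p = 9.26e-05). STMN1, which destabilises microtubules, fell, with 0.53, 0.58 and 0.56 at 48 h, against 0.82, 0.82 and 0.81 at 24 h (difference -0.26 ± 0.026, adjusted p = 1.03e-06), and TPM2, a tropomyosin, and GSN, gelsolin, were higher by 0.19 and 0.15. FERMT1, kindlin 1 of integrin adhesion, fell by 0.18.

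**Figure D4:**
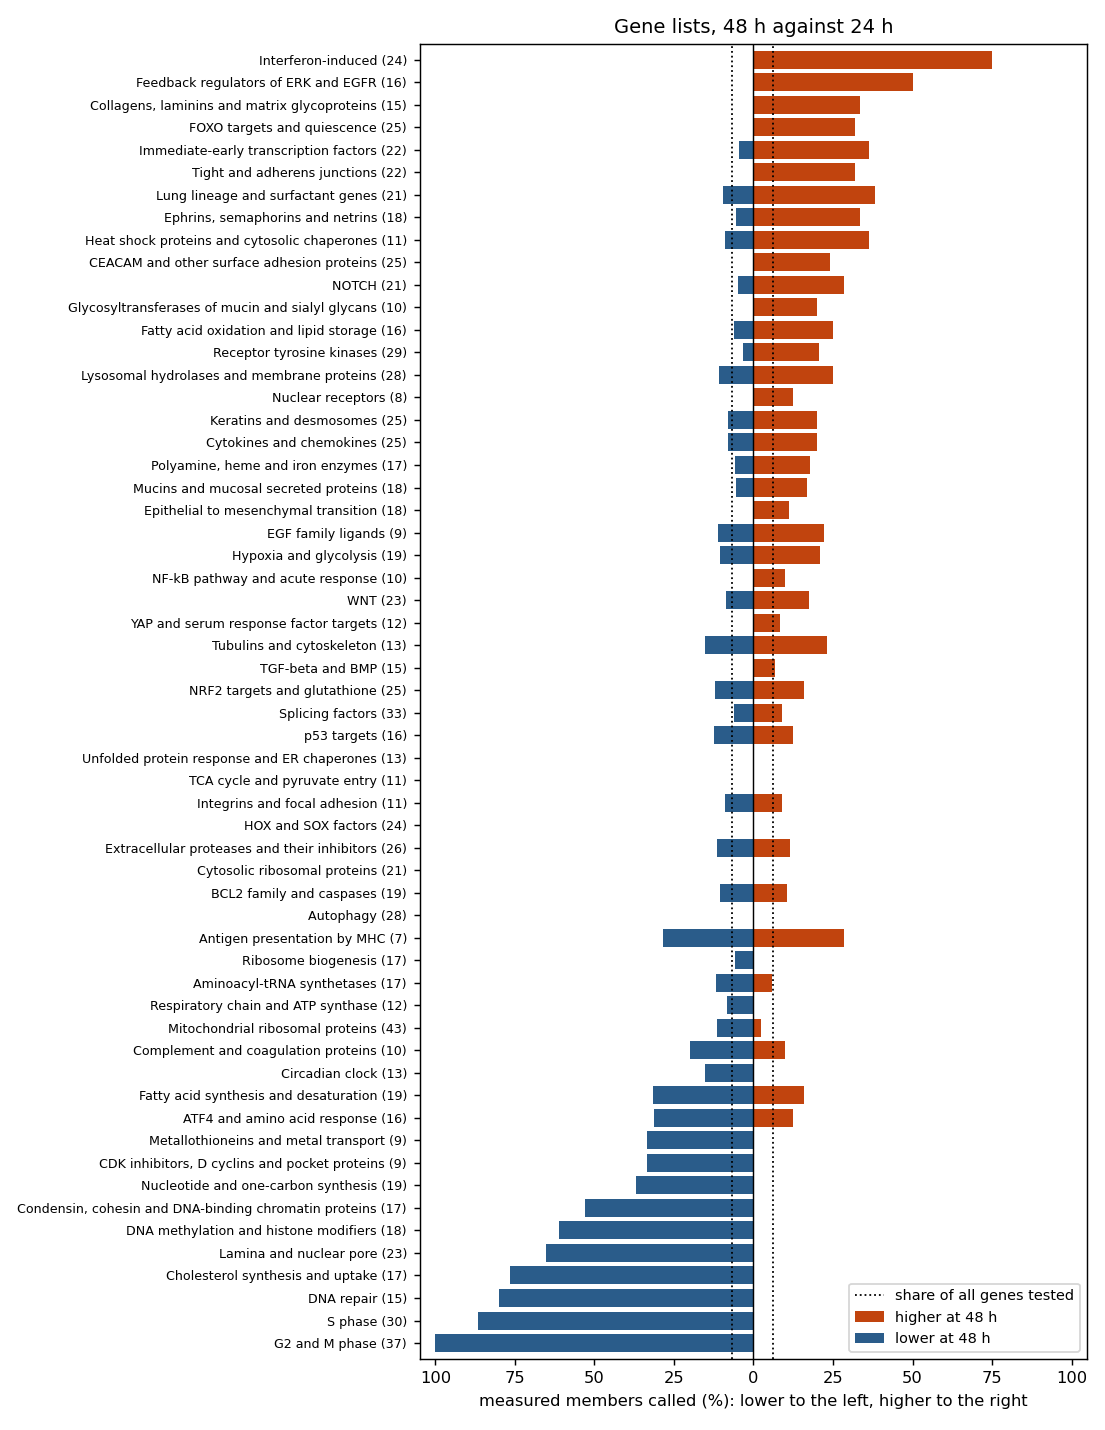
Share of the measured members of each gene list (number in brackets, lists with 7 or more measured) that were called higher (right) or lower (left) at 48 h, with dotted lines at the shares of all genes, 6.19% and 6.68%. Lists of cell division, chromatin and sterols lie on the lower side. The interferon, ERK feedback, junction, and FOXO and quiescence lists lie on the higher side. The lists were chosen with earlier results of these data known. Calls were more frequent in bright genes, and the dotted lines are not matched for brightness.

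Among noncoding genes that are not small RNAs, 86 of 1351 long noncoding RNA genes were called (6.37%). MALAT1, an abundant nuclear RNA of speckles, had 3.23, 3.06 and 3.28 at 48 h, against 2.85, 2.92 and 3.02 at 24 h (difference 0.26 ± 0.048, adjusted p = 0.00108), and its other 2 probe sets were higher by 0.16 and 0.11. It did not pass with trend and robust eBayes. LINC00310 had 1.35, 1.22 and 1.21 at 48 h, against 0.91, 0.85 and 0.91 at 24 h (difference 0.37 ± 0.038, adjusted p = 1.58e-06). IFITM4P, a pseudogene of the interferon-induced IFITM family, whose probes may read its relatives, had 1.36, 1.43 and 1.42 at 48 h, against 1.16, 1.21 and 1.07 at 24 h (difference 0.25 ± 0.034, adjusted p = 4.07e-05). LINC00664 fell, with 0.86, 0.86 and 0.82 at 48 h, against 1.10, 1.08 and 1.09 at 24 h (difference -0.24 ± 0.026, adjusted p = 2.64e-06), and the pseudogene ZSCAN12P1 fell by 0.28.

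MicroRNA genes are described after their values were seen. The probe sets read the genes of the precursors, and mature microRNAs were not measured. Of 934 such genes 46 were called (4.93%), 30 higher and 16 lower, and 16 (11 higher, 5 lower) kept their call without any single array. Some neighbours moved in the same direction. MIR221 had 2.07, 2.15 and 2.18 at 48 h, against 1.94, 1.85 and 1.91 at 24 h (difference 0.23 ± 0.033, adjusted p = 7.92e-05). MIR222, of the same host gene MIR222HG, had 1.08, 1.20 and 1.18 at 48 h, against 0.97, 0.95 and 0.96 at 24 h (difference 0.19 ± 0.033, adjusted p = 0.00052). MIR23B had 1.09, 0.99 and 1.08 at 48 h, against 0.78, 0.75 and 0.80 at 24 h (difference 0.28 ± 0.032, adjusted p = 4.90e-06), and MIR27B beside it was higher by 0.13, within AOPEP, whose own difference of 0.057 did not pass (adjusted p = 0.248). MIR424 and MIR503, also neighbours, were higher by 0.12 and 0.16. MIR205 had 0.62, 0.60 and 0.61 at 48 h, against 0.40, 0.48 and 0.41 at 24 h (difference 0.18 ± 0.032, adjusted p = 0.000708). MIR200C, of the family that represses ZEB factors, had 0.32, 0.36 and 0.46 at 48 h, against 0.21, 0.20 and 0.18 at 24 h (difference 0.18 ± 0.039, adjusted p = 0.0041), and its neighbour MIR141 differed by 0.088 (adjusted p = 0.072). On the lower side MIR15B had 0.32, 0.33 and 0.36 at 48 h, against 0.67, 0.44 and 0.52 at 24 h (difference -0.21 ± 0.042, adjusted p = 0.00231), and MIR16-2 fell by 0.13, with an adjusted p up to 0.0855 without a single array. Both lie within SMC4, a condensin gene that fell by 0.33. MIR29A fell by 0.16.

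**Figure D5:**
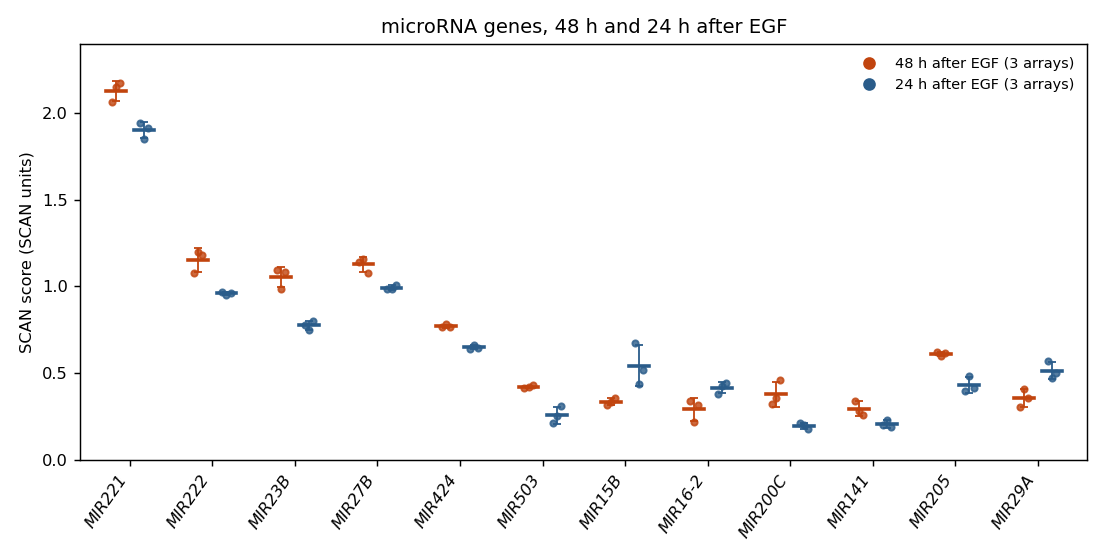
SCAN scores of 12 microRNA genes, 48 h to the left and 24 h to the right of each, with arrays as points, means as bars and SD as whiskers (n = 3 each). MIR221, MIR222, MIR23B, MIR27B, MIR424, MIR503, MIR200C and MIR205 were higher at 48 h, and MIR15B, MIR16-2 and MIR29A lower.

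The mature sequences (RefSeq, GRCh38.p14) are shown because members with the same seed moved in opposite directions. Capitals mark the seed, bases 2 to 8. miR-221-3p and miR-222-3p share a seed, and both of their genes were higher. miR-424-5p, of a gene that was higher, shares its seed with miR-15b-5p and miR-16-5p, of genes that were lower.
miR-221-3p: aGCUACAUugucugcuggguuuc
miR-222-3p: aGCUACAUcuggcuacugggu
miR-23b-3p: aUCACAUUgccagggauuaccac
miR-27b-3p: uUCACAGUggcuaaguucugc
miR-424-5p: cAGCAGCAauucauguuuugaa
miR-503-5p: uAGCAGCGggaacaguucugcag
miR-15b-5p: uAGCAGCAcaucaugguuuaca
miR-16-5p: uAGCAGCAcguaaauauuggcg
miR-200c-3p: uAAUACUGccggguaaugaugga
miR-205-5p: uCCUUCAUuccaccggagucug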

How the data were processed

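Total RNA of H1975 cells was measured on Affymetrix GeneChip Human Gene 2.0 ST arrays. The deposited values are a SCAN score per probe set: the authors removed effects of probe GC content array by array, on a log scale, standardised the result inside every array without a joint normalisation, used the manufacturer's probe annotation and dropped outlier arrays. The SCAN version was not given in the sources used here. Of 39937 probe sets 15426 carry a symbol, and 24511 are not named and were not reported. The brightest probe set was kept for 534 genes with several, which left 14675 genes. No dim gene was removed. A 10-level time factor was fitted to all 15 arrays with limma 3.58.1 in R 4.3.3 (lmFit, eBayes, two-sided, 5 residual degrees of freedom), with Benjamini-Hochberg adjustment over 14675 genes. The script was tested on simulated data. Arrays carry no counts, so their number limits the precision.

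The members and the 67 gene lists (1115 of 1947 entries measured) were chosen with earlier results of these data known. Lists have counts and medians but no test, and the proteasome, vacuolar ATPase and amino acid transporter lists had no measured member under a name. A rule chose genes to name. It took the 12 highest and 12 lowest called protein-coding genes outside the S phase, G2 and M phase, cholesterol and interferon lists. Uncharacterised, FAM and olfactory receptor symbols were left out. Of each list it took up to 3 members with the largest called size (2 in those 4 lists). It also took the largest in each direction where a list went both ways, and the largest member of a list with no call. The 3 highest and 3 lowest noncoding genes and the markers were added. Not every gene so chosen is named, for example PAEP and LTBP1, and some lists are not counted above. Among these, 1 of 11 integrin and focal adhesion genes was higher and 1 lower. Of 15 TGF-beta and BMP genes 1 was higher, and of 24 HOX and SOX genes 0 were called. Other members, SFTPA2, SMC4, AOPEP and the microRNA genes were named after their values were seen. Alternatives were other samples in the fit, the replicate number as a block, quantile normalisation, median centring, scaling by the median absolute deviation, a filter on dim genes, other choices of probe sets and genes, eBayes with trend and robust, leaving out each array, and a noise threshold.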

Additional observations from a re-analysis of the deposited data

How the results depend on the processing

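All 1889 called genes kept their direction under every alternative run. The count of calls was 1806 with the 6 arrays alone, 1840 (934 higher, 906 lower) after quantile normalisation, 1893 (944 and 949) after median centring, 2009 without dim genes, 1882 with probe sets averaged, 1438 with all probe sets tested, 1917 with protein-coding genes alone and 2057 with trend and robust eBayes. Scaling by the median absolute deviation gave 1926 calls with another split, 1245 higher and 681 lower, against 909 and 980, and 1577 genes were called in both. The noise threshold following the study's peak score (0.0616 to 0.0802, called above 2 times it, no p-value) was passed by 839 genes, 362 higher and 477 lower, of which 833 were also called by limma. Without any single array the count was 1411 to 1555 (626 to 741 higher, 759 to 822 lower), and 1034 of the 1889 genes were called in all 6 of these fits. Of 174 called named genes, 10 did not pass after scaling by the median absolute deviation, 9 with all probe sets tested and 12 to 15 without a single array.

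Same-numbered arrays of 48 h and 24 h hardly deviated together (correlations 0.0103, 0.0281 and 0.0297 across genes). Between arrays of different number the correlations were -0.0240 to -0.0034. These values cannot show whether same-numbered arrays shared more than a number. With the replicate number as a block, 1830 genes were called in all 15 arrays and 1727 in the 6, of which 1770 and 1670 were also called without the block. Calls were rare among dim genes, and a missing call there does not show that a gene did not differ.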
